A study of Mus musculus with 9 samples.

Results

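The transcripts of 38 enzyme genes were followed in mouse gastrocnemius, a calf muscle, through hindlimb unloading and the return of load. The genes were taken by symbol from a fixed list of pyruvate dehydrogenase, citric acid cycle and fatty acid oxidation enzymes, and all 38 were found among the 55487 genes of the count table. They comprise 5 genes of the pyruvate dehydrogenase complex, 17 of the citric acid cycle, 11 of mitochondrial beta oxidation, 3 of electron transfer from the acyl-CoA dehydrogenases and 2 of the carnitine shuttle. Poly-A RNA was sequenced from 4 Control libraries, 2 Unloading libraries and 3 Reloading libraries. Control mice were housed in ordinary cages, Unloading mice had spent 10 days with their hind legs off the ground, and Reloading mice had gone through the same 10 days and then 1 day of normal cage activity. All mice were wild-type C57BL/6 (C57BL/6J in the study's text) and male per the labels, with no transgene or drug in any group, although the study's methods speak of females where they set out the unloading of mice. No source used here gave the age of these mice or said whether a library was 1 animal, so the p-values measure the spread between these libraries.

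The pyruvate dehydrogenase complex turns pyruvate from glycolysis into acetyl-CoA, and beta oxidation cuts fatty acids into acetyl-CoA inside the mitochondria. Acetyl-CoA enters the citric acid cycle, whose dehydrogenases pass electrons to the respiratory chain. In muscle these enzymes are most abundant in oxidative fibres, and their levels are known to follow how much the muscle is used.

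Libraries held between 9252443 and 19612101 read pairs in genes. Levels are given in CPM, a gene's count per 1000000 counts of its library, after TMM scaling, which adjusts library totals on the assumption that most genes do not change. The TMM factors were 0.928 to 0.960 in Control and Unloading and 1.11 to 1.13 in Reloading, and mitochondrially encoded genes took 9.36% to 10.6% of counts in Control and Unloading and 6.49% to 6.75% in Reloading. Fibre genes of fast and slow muscle were high in every library, as the tissue label requires. Control 2 and Reloading 1 also carried skin transcripts, with summed levels of 8 skin genes of 295 and 133 CPM against at most 4.38 CPM elsewhere. All 38 enzyme genes passed the filter on low counts, and their counts per library ran from 131 for Etfb to 16506 for Sdha.

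The enzyme genes were lower after unloading, and lower again 1 day after reloading on the TMM scale. Between Unloading and Control 24 of the 38 fell at an adjusted p under 0.05, beside a background of 5.50% of all 14851 tested genes called lower, and 0 rose, beside 4.40% called higher. For the 38 the log2 fold change had a median of -0.30 and a range from -0.90 for Idh2 to 0.24 for Eci2, and for all tested genes a median of -0.0038. Between Reloading and Control 33 fell and 0 rose, beside backgrounds of 21.3% and 22.1%, with a median of -0.53 and a median of all genes of 0.013. Between Reloading and Unloading 20 fell and 2 rose, beside backgrounds of 19.0% and 18.5%, with a median of -0.23 and a median of all genes of 0.026. The comparisons share libraries, so their counts are not independent of each other. Of all tested genes 16.6% lay lower and 16.4% higher without overlap between the libraries on unloading. The shares were 29.0% and 31.0% from Unloading to Reloading, and 22.7% and 24.2% from Control to Reloading. Of the 38 genes 33 lay lower and 1 higher, 24 and 2, and 33 and 0. In Unloading 1, 37 of the 38 genes were lower than in Unloading 2. Without Unloading 1 the count of 24 was 2 (Idh2 and Sdhb), or 5.26% of the 38 beside 0.361% of 15498 tested genes called lower. The median was then -0.23, and the 22 genes whose calls were lost lay between -0.42 for Acads and -0.17 for Suclg1.

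Summed over the 38 genes, the level was 11958 ± 375 CPM in the 4 Control libraries (mean ± SD), 9639 ± 718 CPM in the 2 Unloading libraries and 8438 ± 304 CPM in the 3 Reloading libraries, and the ranges of the 3 groups did not overlap. As a share of all deposited counts, with no TMM factor, the same genes took 1.13% ± 0.0277 of Control, 0.906% ± 0.0575 of Unloading and 0.942% ± 0.0266 of Reloading libraries (mean ± SD over 4, 2 and 3). The fall from Control to Unloading was thus present on both scales, whereas the further step to Reloading was present only after TMM. In whole muscle, fewer cells of a type and less of a transcript per cell cannot be told apart.

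**Figure D1:**
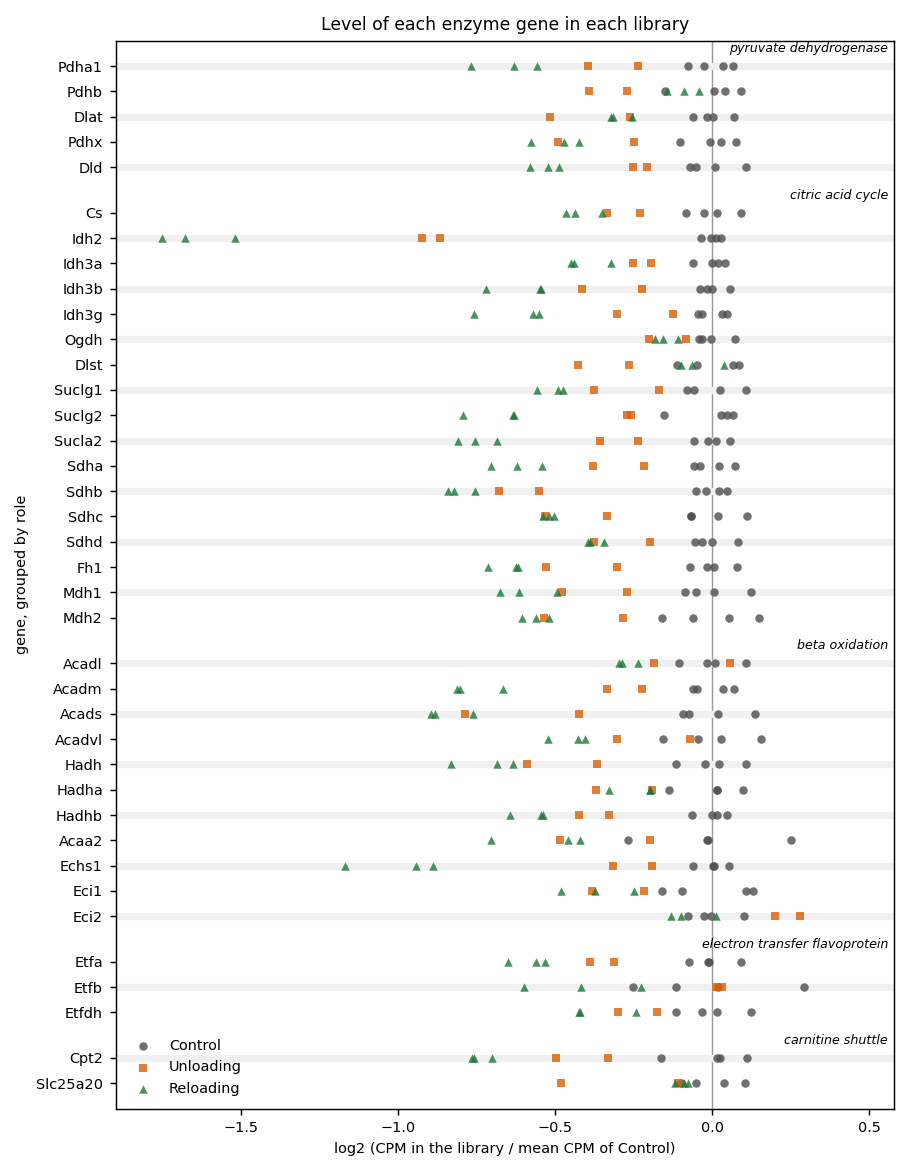
Level of each of the 38 enzyme genes in each of the 9 libraries, as log2 of the CPM in that library over the mean CPM of Control, grouped by role, with 1 symbol for each library (grey circles Control, orange squares Unloading, green triangles Reloading). Idh2 lies farthest to the left in Unloading and in Reloading, Eci2 is the gene whose Unloading squares lie right of all other libraries, and Pdhb and Dlst have their Reloading triangles among the Control circles.

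Per kilobase of exon, the most abundant of the 38 in Control was Sdha, the flavoprotein of succinate dehydrogenase, at 254 CPM per kilobase, followed by Mdh2 at 222, Sdhd at 194, Mdh1 at 191 and Sdhb at 179. Per kilobase of unshared exon Mdh1 was at 195 and Sdhd at 194, and Pdha1, at 190.3, stood above Sdhb. The least abundant were Eci2 at 8.71, Slc25a20 at 13.1, Echs1 at 13.1 and Suclg2 at 13.1 CPM per kilobase. These ranks depend on the annotation, since all annotated exon bases of a gene enter, 8286 for Echs1 and 1231 for Sdhd. Without division by length the lowest Control mean was that of Etfb at 17.6 CPM, and Echs1 had 109 CPM. Levels of Etfb, Acadvl and Pdha1 are understated, because 58.2%, 42.9% and 16.1% of their exon bases also belong to another annotated gene and pairs that overlapped more than 1 gene were not counted. The genes concerned, Etfbl, Dvl2 and Map3k15, had at most 2, 172 and 28 counts in any library.

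Of the 5 pyruvate dehydrogenase genes 4 fell on unloading, beside 5.50% of all tested genes. From Unloading to Reloading 2 fell and 1 rose, beside 19.0% and 18.5%. On the TMM scale Pdha1 was among those that fell and Pdhb was the gene that rose. The exact permutation test on their ratio within a library gave its smallest possible p, 0.200, for that step. Pdha1 (ENSMUSG00000031299, GRCm38 chromosome X, 160122209 to 160138413, minus strand) encodes the alpha subunit of the E1 component, which carries the phosphorylation sites that switch the complex off. It had 609, 565, 584 and 624 CPM in Control, 453 and 506 CPM in Unloading and 404, 349 and 385 CPM in Reloading. Each group lay below the one before it without overlap, and Pdha1 fell by 0.34 ± 0.083 on the log2 scale (SE) from Unloading to Reloading, with an adjusted p of 0.00493, or by 0.26 and an adjusted p of 0.0681 without Unloading 2. Pdhb (ENSMUSG00000021748, chromosome 14, 8165996 to 8173025, minus strand) encodes the beta subunit that pairs with it. Its levels were 299, 292, 262 and 309.8 CPM in Control, 221 and 241 CPM in Unloading and 282, 263 and 273 CPM in Reloading. Reloading thus lay above Unloading and within the range of Control, with log2 fold changes of 0.24 against Unloading (adjusted p 0.0346) and -0.092 against Control (adjusted p 0.304). The call of Pdhb against Unloading was lost in 8 of 20 alternatives, among them each fit that left out a library of either group, with adjusted p-values up to 0.238.

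Dlat, the acetyltransferase core of the complex, fell on unloading from 204 ± 7.69 to 156 ± 19.3 CPM (SD) and stood at 166 ± 4.27 CPM in Reloading, a log2 difference from Unloading of 0.086 (adjusted p 0.439). Pdhx, which tethers the E3 component to that core, fell from 83.4 ± 4.38 to 64.7 ± 7.69 CPM and stood at 59.4 ± 3.18 CPM in Reloading (log2 difference from Unloading -0.13, adjusted p 0.285). Dld is the E3 component itself and serves the 2-oxoglutarate and branched-chain complexes too. It had 306 ± 17.1 CPM in Control and 261 ± 5.68 CPM in Unloading (adjusted p 0.0567), and fell to 212 ± 6.79 CPM in Reloading (log2 fold change against Unloading -0.30, adjusted p 0.00551).

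Among the 17 citric acid cycle genes 13 fell on unloading, beside 5.50% of all tested genes. From Unloading to Reloading 9 fell and 1 rose, beside 19.0% and 18.5%. Idh2 stood apart from the rest. Idh2 (ENSMUSG00000030541, chromosome 7, 80094846 to 80115392, minus strand) encodes the mitochondrial NADP-dependent isocitrate dehydrogenase, which makes the NADPH used against peroxides beside its place at the isocitrate step. Its levels were 289, 295, 302 and 299 CPM in Control, 156 and 162 CPM in Unloading and 92.6, 87.9 and 103 CPM in Reloading. Libraries of a group lay close together and the 3 groups far apart, with 53.7% of the Control mean left in Unloading and 31.9% in Reloading. The log2 fold change was -0.90 ± 0.076 (SE) for Unloading against Control (adjusted p 3.02e-05). It was -0.75 ± 0.078 from Unloading to Reloading (adjusted p 5.34e-06) and -1.65 ± 0.069 from Control to Reloading (adjusted p 1.93e-10). In every comparison it was the member that fell most, and none of the 20 alternative settings removed a call, with log2 fold changes between -0.82 and -0.50 from Unloading to Reloading.

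The NAD-dependent isocitrate dehydrogenase, the form that drives the cycle, moved less. Its catalytic subunit Idh3a had 654 ± 19.5 CPM in Control, 561 ± 15.7 CPM in Unloading and 495 ± 24.4 CPM in Reloading, with adjusted p-values of 0.0540 and 0.0622 for the successive steps and 8.46e-05 for Reloading against Control. The regulatory subunit Idh3b fell from 473 ± 13.6 to 380.2 ± 35.1 and then to 312 ± 21.3 CPM. The other regulatory subunit, Idh3g, had 353, 372, 356 and 376 CPM in Control, 295 and 334 CPM in Unloading and 248, 215 and 245 CPM in Reloading. Its log2 fold change was -0.41 ± 0.083 (SE) for Reloading against Unloading (adjusted p 0.00124), while Unloading against Control gave -0.21 (adjusted p 0.105). Citrate synthase, Cs, which opens the cycle and is widely used as a measure of mitochondrial content, fell from 755 ± 38.6 to 621 ± 31.3 CPM on unloading and had 565 ± 23.9 CPM in Reloading (log2 difference from Unloading -0.13, adjusted p 0.181).

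The 2-oxoglutarate dehydrogenase complex is built from Ogdh, Dlst and the shared Dld. Ogdh, its E1 component, had 888, 962, 912 and 894 CPM in Control, 795 and 863 CPM in Unloading and 847, 806 and 821 CPM in Reloading. Unloading and Reloading overlapped and the log2 difference between them was -0.0082 (adjusted p 0.941). Ogdh was called in no comparison. Between Reloading and Control its log2 difference was -0.15 (adjusted p 0.0596), and with a replicate block by the numbers in the sample descriptions, which paired those libraries, it was -0.16 (adjusted p 0.0291). Of the 20 alternatives 7 changed the direction or the call, over a range from -0.17 to 0.090. Dlst (ENSMUSG00000004789, chromosome 12, 85110833 to 85134845, plus strand), its succinyltransferase core, had 266, 306, 279 and 301 CPM in Control, 214 and 239.7 CPM in Unloading and 295, 269 and 276 CPM in Reloading. The Reloading libraries lay above both Unloading libraries and inside the Control range. Dlst fell by 0.34 on the log2 scale on unloading (adjusted p 0.0159) and rose by 0.30 ± 0.085 (SE) on reloading (adjusted p 0.0113), and Reloading against Control gave -0.042 ± 0.070 (adjusted p 0.660). With library totals in place of TMM the value against Control turned to 0.20 (adjusted p 0.0206), and without Unloading 1 the rise on reloading was 0.22 with an adjusted p of 0.136.

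Succinyl-CoA synthetase pairs the alpha subunit Suclg1 with either Sucla2, which makes the enzyme form ATP, or Suclg2, which makes it form GTP. Sucla2 (ENSMUSG00000022110, chromosome 14, 73525319 to 73596142, plus strand) had 561, 534, 518 and 544 CPM in Control, 421 and 458 CPM in Unloading and 335, 308 and 319.5 CPM in Reloading, with no overlap between any groups. It fell by 0.45 ± 0.073 on the log2 scale (SE) from Unloading to Reloading (adjusted p 0.000228) and by 0.75 ± 0.063 from Control to Reloading (adjusted p 3.32e-07). Suclg2 was far less abundant, with 62.8, 63.7, 54.7 and 61.9 CPM in Control, 50.4 and 50.8 CPM in Unloading and 39.2, 35.1 and 39.3 CPM in Reloading. Both groups lay below Control without overlap, but of the 2 steps the test called the later one, with -0.42 ± 0.087 for Reloading against Unloading (adjusted p 0.00165) and -0.26 for Unloading against Control (adjusted p 0.0589). With library totals this turned round, with -0.17 for the later step (adjusted p 0.117) and -0.27 for the earlier (adjusted p 0.0470). Suclg1 fell from 234 ± 14.0 to 194 ± 19.8 and then to 164 ± 5.04 CPM, with adjusted p-values of 0.0461 and 0.0343, calls that changed in 12 and in 7 of the 20 alternatives.

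All 4 subunits of succinate dehydrogenase, the enzyme shared by the cycle and the respiratory chain, fell on unloading. The iron-sulfur subunit Sdhb (ENSMUSG00000009863, chromosome 4, 140961203 to 140979193, plus strand) fell most. It had 387, 415, 396 and 408 CPM in Control, 251 and 274 CPM in Unloading and 224, 227 and 238 CPM in Reloading, with a wide gap between Control and Unloading and a narrow one to Reloading. The log2 fold change was -0.61 ± 0.071 (SE) for Unloading against Control (adjusted p 0.000233) and -0.81 ± 0.062 for Reloading against Control (adjusted p 1.47e-07), and -0.19 for Reloading against Unloading (adjusted p 0.0484), a step whose call or direction 16 of the 20 alternatives changed. The flavoprotein subunit Sdha had 1020.4, 1065, 1007 and 1103 CPM in Control, 807 and 902 CPM in Unloading and 719.9, 644 and 682 CPM in Reloading, again with no overlap. It fell by 0.33 ± 0.079 from Unloading to Reloading (adjusted p 0.00465), or by 0.25 without Unloading 2 (adjusted p 0.0661). The membrane anchors Sdhc and Sdhd fell on unloading, Sdhc by 0.43 ± 0.079 (adjusted p 0.00430) from 244 ± 14.4 to 181 ± 17.5 CPM and Sdhd from 239 ± 10.2 to 196 ± 16.9 CPM. Neither was called between Unloading and Reloading (adjusted p 0.404 and 0.371).

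Fumarase, Fh1, had 256, 274, 247 and 261 CPM in Control, 179 and 210.3 CPM in Unloading and 168, 158 and 169 CPM in Reloading. It fell by 0.41 ± 0.079 on the log2 scale (SE) on unloading (adjusted p 0.00544) and by 0.65 ± 0.070 from Control to Reloading (adjusted p 3.37e-06). The malate dehydrogenases of cytosol and mitochondria, Mdh1 and Mdh2, fell side by side on unloading, Mdh1 from 509 ± 32.7 to 394 ± 39.7 CPM and Mdh2 from 789.8 ± 73.7 to 596 ± 73.2 CPM, with adjusted p-values of 0.0137 for each. In Reloading they had 337 ± 21.7 and 535 ± 16.0 CPM, not called against Unloading (adjusted p 0.0586 and 0.217).

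Promoter windows from RefSeq (GRCm38.p6, 250 bases before to 50 after the start) were found for 35 of the 38 genes (not for Idh3a, Sdhc and Acaa2) and searched on both strands for 6 motifs known from genes of mitochondrial enzymes. The estrogen-related receptor element TNAAGGTCA was in 1 of 35 windows (2.86%, against 1.43% of 27025 genes with a window), the nuclear receptor site CAAAGGTCA in 0 (against 0.544%), the NRF1 core CGCANGCG in 11 (31.4%, against 9.22%), the ETS site CCGGAAGT in 3 (8.57%, against 4.31%), the YY1 site AAGATGGCG in 2 (5.71%, against 1.64%) and the E-box CACGTG in 1 (2.86%, against 8.09%). The 2 receptor motifs share their last letters but cannot match the same place. These are matches of letters and not shown to be bound, and 20 of the 35 windows held none of them. The windows of Idh3g, Ogdh and Sdhd are shown because each held 2 kinds of motif, the most of any member. Of these genes, Idh3g was called between Unloading and Reloading, Sdhd between Control and Unloading, and Ogdh in neither. Whether their courses differed from each other was not tested. From Control to Reloading both Idh3g and Sdhd fell, with log2 fold changes of -0.62 and -0.38. The call of Idh3g was lost with library totals (adjusted p 0.0989), and that of Sdhd changed in 5 of 20 alternatives. Capitals mark the motifs, and the gene's strand is printed 5′ to 3′. In Idh3g (chrX:73786848-73787147, minus strand) a YY1 site began 130 bases and an NRF1 core 71 bases before the start. In Ogdh (chr11:6292308-6292607, plus strand), a gene with more than 1 window, an E-box began 141 bases and an NRF1 core 14 bases before it. In Sdhd (chr9:50603800-50604099, minus strand) an NRF1 core began 78 bases before the start and the estrogen-related receptor element lay 36 bases after it.
Idh3g: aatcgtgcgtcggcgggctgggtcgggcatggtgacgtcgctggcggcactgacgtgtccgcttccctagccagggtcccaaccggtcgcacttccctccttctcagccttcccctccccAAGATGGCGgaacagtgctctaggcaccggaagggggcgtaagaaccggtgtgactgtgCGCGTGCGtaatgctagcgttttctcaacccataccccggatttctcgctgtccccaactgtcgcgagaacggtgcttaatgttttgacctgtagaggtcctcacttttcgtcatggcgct
Ogdh: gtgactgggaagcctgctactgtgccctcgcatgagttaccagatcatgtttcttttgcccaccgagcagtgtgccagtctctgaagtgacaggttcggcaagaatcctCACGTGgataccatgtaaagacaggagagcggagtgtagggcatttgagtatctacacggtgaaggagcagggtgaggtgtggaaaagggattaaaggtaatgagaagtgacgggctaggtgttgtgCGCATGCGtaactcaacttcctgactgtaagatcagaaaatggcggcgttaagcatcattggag
Sdhd: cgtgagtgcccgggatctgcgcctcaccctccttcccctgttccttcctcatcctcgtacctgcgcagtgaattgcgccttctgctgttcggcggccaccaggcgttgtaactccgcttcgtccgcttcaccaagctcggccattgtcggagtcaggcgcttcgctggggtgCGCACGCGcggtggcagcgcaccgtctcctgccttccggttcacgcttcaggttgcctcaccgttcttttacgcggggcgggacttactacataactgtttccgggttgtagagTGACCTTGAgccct

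Of the 11 beta oxidation genes 5 were lower on unloading, 6 lower from Unloading to Reloading and 10 lower from Control to Reloading. The shares of all tested genes called lower were 5.50%, 19.0% and 21.3%. The acyl-CoA dehydrogenases open each round of the spiral and differ in the length of the chain they take. Acads, for short chains, had 55.5, 65.0, 59.9 and 56.2 CPM in Control, 34.3 and 44.1 CPM in Unloading and 34.9, 32.1 and 31.8 CPM in Reloading. Control lay above all other libraries, and Acads fell by 0.59 ± 0.10 on the log2 scale (SE) on unloading (adjusted p 0.00331) and by 0.85 ± 0.091 from Control to Reloading (adjusted p 3.62e-06). Acadm, for medium chains (ENSMUSG00000062908, chromosome 3, 153922357 to 153944632, minus strand), had 325, 356, 328 and 347 CPM in Control, 269 and 291 CPM in Unloading and 193, 195 and 214 CPM in Reloading, with no overlap between any groups. Its log2 fold change was -0.48 ± 0.077 from Unloading to Reloading (adjusted p 0.000223) and -0.28 on unloading (adjusted p 0.0287). With library totals these were -0.23 and -0.29, so which step was larger depended on the scaling. Acadl, for long chains, had 216 ± 13.1 CPM in Control and 208 ± 24.5 CPM in Unloading (adjusted p 0.701). Acadvl, for very long chains, had 169 ± 15.4 and 149 ± 17.0 CPM (adjusted p 0.225). From Control to Reloading both fell, with log2 fold changes of -0.27 and -0.45.

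Echs1 (ENSMUSG00000025465, chromosome 7, 140105710 to 140116476, minus strand) encodes the enoyl-CoA hydratase of short chains, the next step of the spiral, which is also used in valine breakdown. It had 113, 109, 109 and 104 CPM in Control, 94.99 and 87.2 CPM in Unloading and 56.5, 48.3 and 58.6 CPM in Reloading. The Reloading libraries lay far below the others, at 50.2% of the Control mean. Echs1 fell by 0.74 ± 0.087 on the log2 scale (SE) from Unloading to Reloading (adjusted p 1.57e-05) and by 0.99 ± 0.076 from Control to Reloading (adjusted p 1.35e-07), and neither call was lost in the 20 alternatives. For Unloading against Control the value was -0.25 (adjusted p 0.0669).

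Hadh, which oxidizes the hydroxyacyl-CoA of short chains, had 153, 178, 168 and 163 CPM in Control, 110.1 and 128 CPM in Unloading and 107, 92.9 and 103 CPM in Reloading. It fell by 0.47 ± 0.088 on the log2 scale (SE) on unloading (adjusted p 0.00471). The trifunctional protein carries out the last 3 steps for long chains and is built from Hadha and Hadhb, whose starts lie 86 bases apart on opposite strands of chromosome 5. Hadhb had 224, 237, 234 and 242 CPM in Control, 174 and 186 CPM in Unloading and 161, 149.8 and 160.1 CPM in Reloading, and fell by 0.37 ± 0.070 on unloading (adjusted p 0.00475). Hadha had 322, 379.9, 358 and 359 CPM in Control, 275 and 311 CPM in Unloading and 309, 282 and 309 CPM in Reloading. Its Reloading libraries overlapped those of Unloading, with a log2 difference of 0.035 (adjusted p 0.771) where Hadhb had -0.20 (adjusted p 0.0413). The call of Hadha on unloading and that of Hadhb on reloading each changed in 12 of the 20 alternatives, and without Reloading 2 the value of Hadha against Control was -0.20 (adjusted p 0.0741). The thiolase Acaa2 had 132 ± 19.4, 105 ± 14.6 and 91.9 ± 9.50 CPM in Control, Unloading and Reloading, and was called for Reloading against Control (log2 fold change -0.52, adjusted p 0.00126).

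The enoyl-CoA isomerases move double bonds of unsaturated fatty acids into place, and whether their changes differed from each other was not tested. Eci1 had 92.5 ± 9.26 CPM in Control, 75.3 ± 6.21 CPM in Unloading and 71.9 ± 5.79 CPM in Reloading. It was not called on unloading (adjusted p 0.0664). For Reloading against Control it was called lower (log2 fold change -0.37, adjusted p 0.00305), a call lost with library totals. Eci2 had 47.4, 48.2, 45.7 and 51.7 CPM in Control, 55.4 and 58.5 CPM in Unloading and 45.0, 44.0 and 48.7 CPM in Reloading. It was the member with the highest log2 fold change on unloading, 0.24 ± 0.077 (SE), which missed the threshold at an adjusted p of 0.0624, and it fell by 0.31 from Unloading to Reloading (adjusted p 0.00752). Its Reloading and Control libraries overlapped. For Unloading against Control the adjusted p of Eci2 was 0.0460 without Control 4, and the fall on reloading was not called with library totals (-0.063).

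The electron transfer flavoprotein collects electrons from the acyl-CoA dehydrogenases and Etfdh hands them to ubiquinone. Etfa had 205, 206, 197 and 220.2 CPM in Control, 158 and 166 CPM in Unloading and 143, 132 and 140.2 CPM in Reloading, with no overlap between the groups. It fell by 0.35 ± 0.073 on the log2 scale (SE) on unloading (adjusted p 0.00788). Etfb, counted over the unshared part of its exons, had 17.6 ± 2.92, 17.9 ± 0.167 and 13.3 ± 1.72 CPM in the 3 groups and Etfdh 139.6 ± 9.68, 118 ± 7.04 and 109 ± 8.05 CPM. Neither was called on unloading (adjusted p 0.959 and 0.0878), and both were lower in Reloading than in Control (adjusted p 0.0170 and 0.00115). Without Reloading 1 the value of Etfb against Control was -0.32 and not called (adjusted p 0.0786).

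The carnitine shuttle brings long fatty acids across the inner membrane. Cpt2, its inner enzyme, had 55.0, 62.2, 66.4 and 62.7 CPM in Control, 43.6 and 49.0 CPM in Unloading and 37.9, 36.2 and 36.4 CPM in Reloading. It fell by 0.41 on the log2 scale on unloading (adjusted p 0.00796) and by 0.74 ± 0.077 (SE) from Control to Reloading (adjusted p 2.49e-06). Slc25a20, the carrier that exchanges acylcarnitine for carnitine, had 59.2, 68.2, 65.1 and 61.2 CPM in Control, 45.4 and 58.8 CPM in Unloading and 59.6, 58.4 and 60.1 CPM in Reloading. Reloading overlapped both other groups, and Slc25a20 was called in no comparison (adjusted p 0.0797, 0.170 and 0.381). It depended on Unloading 2, without which it was called lower on unloading (-0.48, adjusted p 0.0116) and higher on reloading (0.38, adjusted p 0.0168).

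**Figure D2:**
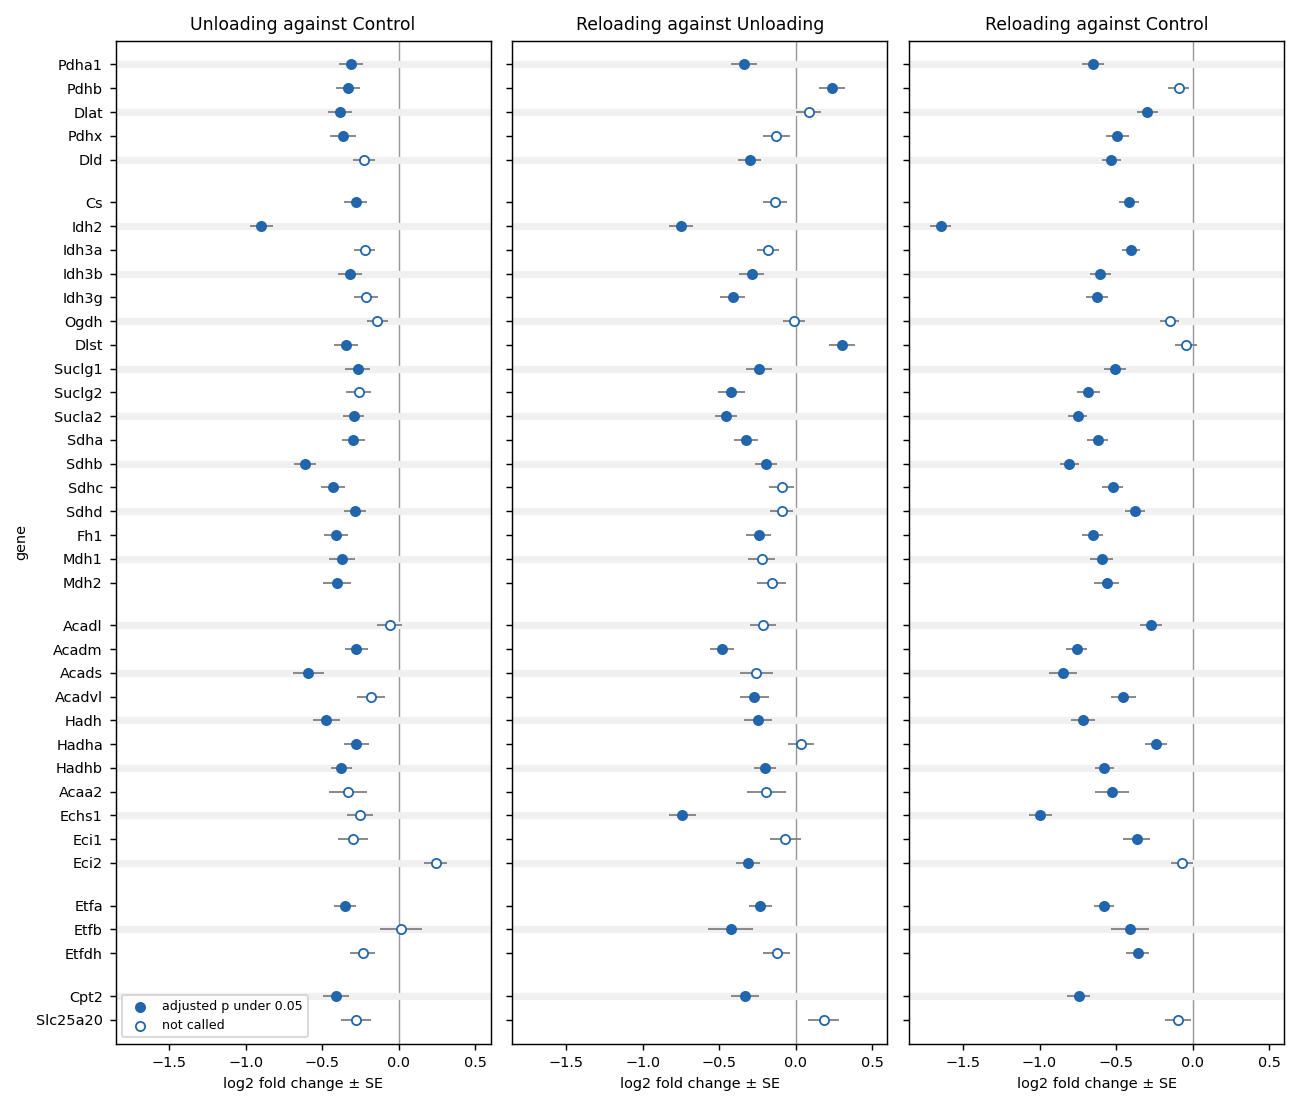
Log2 fold change ± SE of each enzyme gene in the 3 comparisons, in the same order by role, filled where the adjusted p was under 0.05 and open where it was not. Nearly all points lie left of 0 against Control, and in the middle panel the filled points right of 0 are Pdhb at 0.24 and Dlst at 0.30.

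How many genes fell from Unloading to Reloading depended on how the libraries were scaled. With library totals in place of TMM all tested genes had a median log2 fold change of 0.27 and the 38 had one of 0.022, with 4 genes called lower (10.5%) and 6 higher (15.8%), beside 7.34% and 35.4% of all tested genes. The 4 were Idh2 (-0.50), Echs1 (-0.49), Acadm (-0.23) and Sucla2 (-0.21), which were called lower under each of the 20 alternatives. The 6 were Dlst (0.55), Pdhb (0.49), Slc25a20 (0.43), Dlat (0.33), Hadha (0.28) and Ogdh (0.24). The other 28 were called in neither direction on that scale. The order of the genes from Idh2 to Dlst was the same on both scales. Against Control, 26 genes (68.4%) were still called lower in Reloading with library totals, and 2 (5.26%) were called higher, Dlst and Eci2, beside 9.99% and 40.6% of all tested genes. The count of 20 also moved with single libraries, to 7 without Unloading 2 (18.4%, beside 13.2% of all genes tested in that fit) and to 11 without Reloading 2 (28.9%, beside 15.6%).

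**Figure D3:**
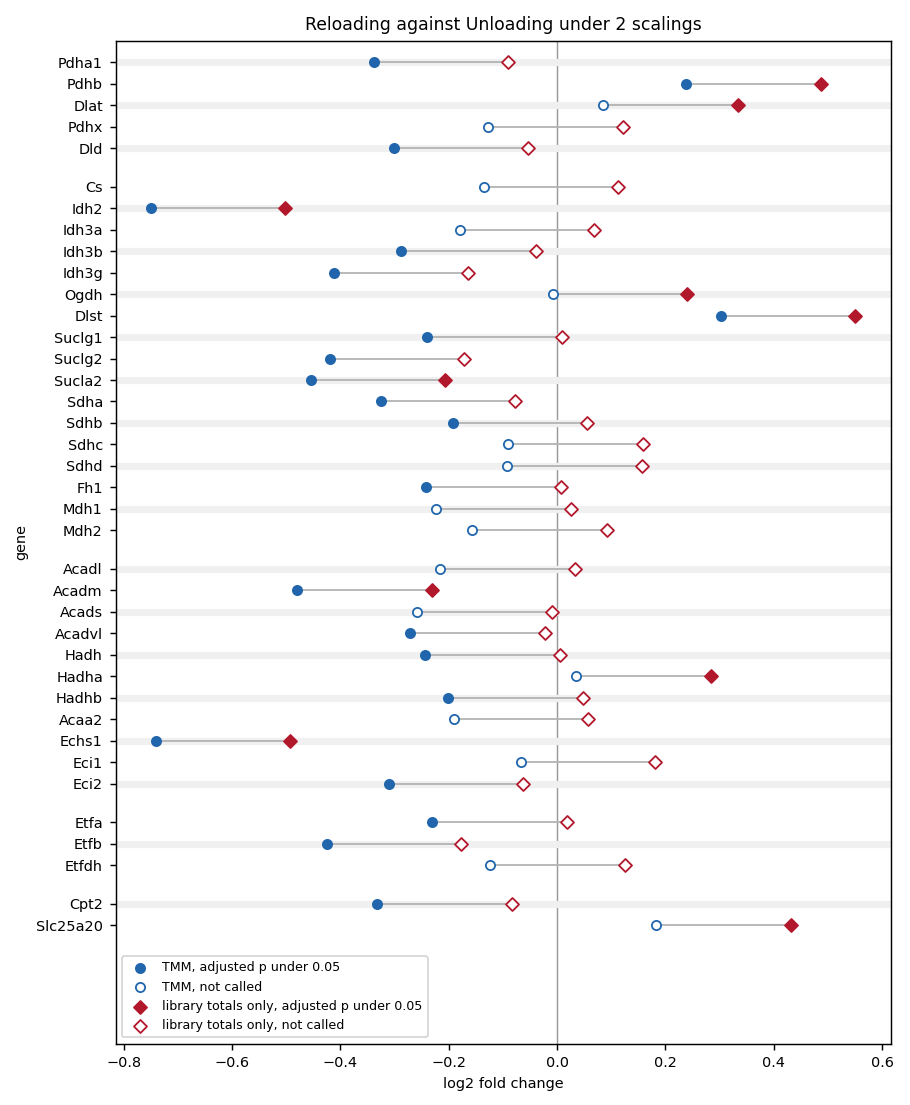
Log2 fold change of each enzyme gene for Reloading against Unloading after TMM (blue circles) and with library totals only (red diamonds), joined by a line and filled where the adjusted p was under 0.05. The shift is about the same for each gene, so the order is kept, and Idh2, Sucla2, Acadm and Echs1 have filled symbols left of 0 on both scales.

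Ratios between subunits or forms of an enzyme, taken within a library as counts per exon base, do not depend on the scaling. There were 9 of them. Idh2 to Idh3a was 0.860 to 0.943 in Control, 0.5561 and 0.5562 in Unloading and 0.357 to 0.387 in Reloading. No groups overlapped, and the geometric mean in Unloading was 0.627 of that in Control and in Reloading 0.672 of that in Unloading. Pdhb to Pdha1 was 0.433 to 0.499 in Control and 0.460 to 0.472 in Unloading, and 0.674 to 0.728 in Reloading, 1.49-fold above Unloading. The 16.1% of Pdha1 exon bases that went uncounted affect the level of this ratio in all groups. Hadha to Hadhb was 1.09 to 1.21 in Control, 1.19 to 1.26 in Unloading and 1.42 to 1.46 in Reloading, 1.18-fold above Unloading.

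Sdha to Sdhb was 1.38 to 1.47 in Control, 1.75 to 1.79 in Unloading and 1.54 to 1.74 in Reloading, so that both groups lay above Control without overlap. The ratios of Idh3b and Idh3g to Idh3a were 0.870-fold and 0.857-fold in Reloading relative to Control, also without overlap. Suclg2 to Sucla2 stayed between 0.0910 and 0.106 and Mdh1 to Mdh2 between 0.781 and 0.980 over all 9 libraries, with overlap between the groups in each comparison. Etfa to Etfb, which rests on the unshared part of the Etfb exons, was 6.05 to 8.79 in Control, 5.64 to 5.87 in Unloading and 5.92 to 7.81 in Reloading, with Unloading below both other groups. By two-sided exact permutation tests with 4, 2 and 3 libraries a group the smallest possible p was 0.133 for Unloading against Control, 0.200 for the step to Reloading and 0.0571 between Reloading and Control, so that none could pass 0.05. Idh2 to Idh3a, Pdhb to Pdha1, Hadha to Hadhb, Sdha to Sdhb and both Idh3 ratios reached the exact p of 0.0571 for Reloading against Control (0.0857 adjusted over the 9 ratios).

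**Figure D4:**
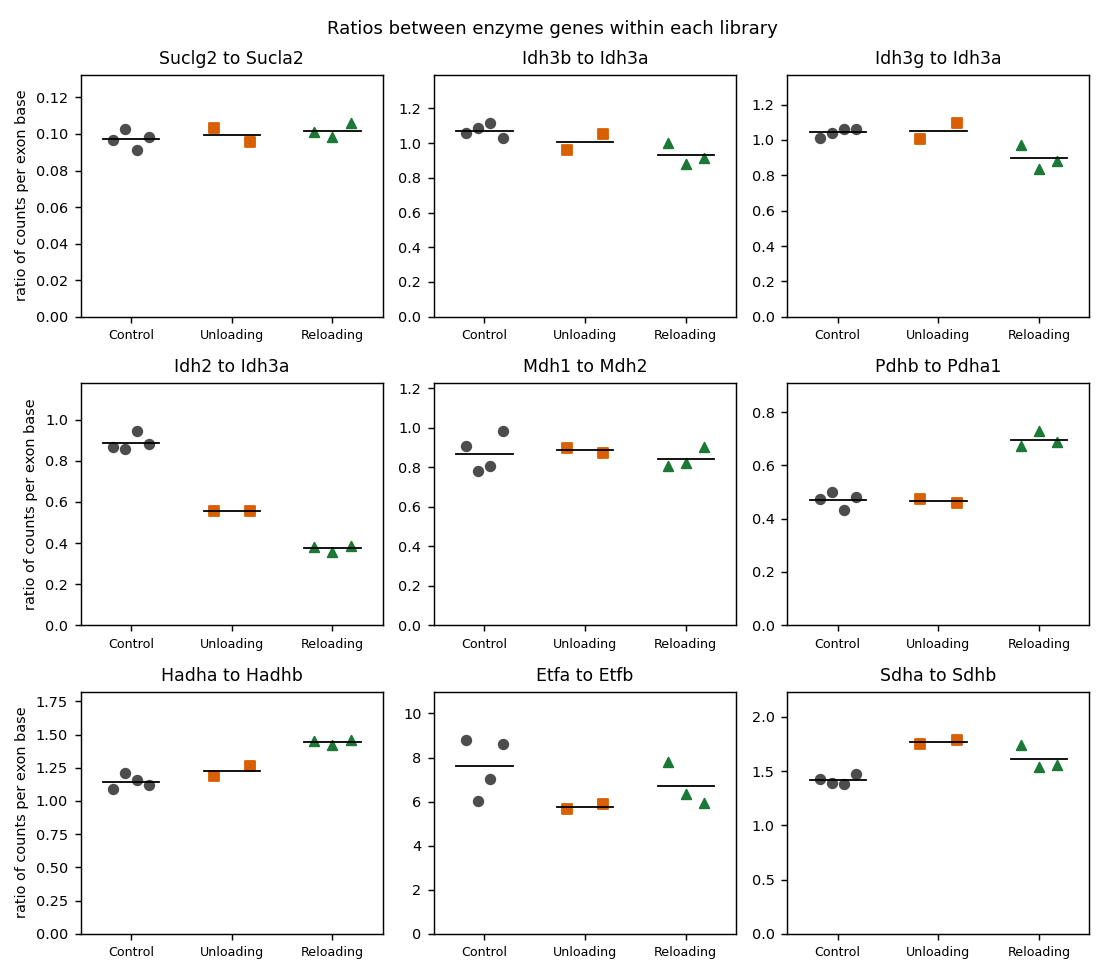
Ratios between 9 pairs of enzyme genes in each library, as counts per exon base of the one over the other, with axes from 0, 1 symbol for each library and a horizontal line at the group mean. Idh2 to Idh3a steps down from Control to Unloading and again to Reloading, whereas Pdhb to Pdha1 and Hadha to Hadhb are highest in Reloading.

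Neighbouring genes of the pathway were described from lists of their own, and the 2 genes named for each list and comparison are those with the smallest p, not the largest fold change. Of all tested genes 5.50% were called lower and 4.40% higher on unloading. The shares were 19.0% and 18.5% from Unloading to Reloading, and 21.3% and 22.1% from Control to Reloading. Counts for these lists and for the marker lists stand beside that background. Of 10 genes of pyruvate entry and pyruvate dehydrogenase regulation, 3 fell on unloading, 7 from Unloading to Reloading and 8 from Control to Reloading (median log2 fold changes -0.14, -0.42 and -0.69). Mpc1 and Mpc2, the pyruvate carrier of the inner membrane, had the smallest p in the last comparison, with -0.96 and -0.75 (adjusted p 2.84e-07 and 8.47e-07), Mpc2 (-0.41) and the kinase Pdk1 (-0.37) on unloading, and the phosphatase Pdp1 (-0.80) and Mpc1 (-0.66) from Unloading to Reloading. The 1 gene that rose from Control to Reloading was Pdk4, the kinase that shuts the complex down in fasting, named after its values were seen. Pdk4 had 326, 506, 387 and 406 CPM in Control, 582 and 698 CPM in Unloading and 1071, 1043 and 532 CPM in Reloading. Reloading 3 lay below both Unloading libraries, so those groups overlapped, while the log2 fold change against Control was 1.12 ± 0.19 (SE, adjusted p 0.000217).

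Of 20 further citric acid cycle genes (cytosolic forms, assembly factors, carriers), 4 fell and 1 rose on unloading, 10 fell and 2 rose from Unloading to Reloading and 14 fell and 1 rose from Control to Reloading. The assembly factor Sdhaf2 (-0.37, adjusted p 0.00773) and the 2-oxoglutarate carrier Slc25a11 (-0.33, adjusted p 0.0160) came first on unloading. The malic enzymes Me1 (-0.78, adjusted p 6.44e-06) and Me3 (-0.55, adjusted p 5.71e-05) came first from Unloading to Reloading, and the aspartate carrier Slc25a12 (-0.67) and Me1 (-0.62) from Control to Reloading. Of 28 further fatty acid oxidation genes, 3 fell and 2 rose on unloading, 13 fell and 3 rose from Unloading to Reloading and 17 fell and 4 rose from Control to Reloading. The shares that fell were 10.7%, 46.4% and 60.7%, and those that rose 7.14%, 10.7% and 14.3%. In Reloading the shares that rose lay below those of all tested genes, 18.5% against Unloading and 22.1% against Control. Acsl6 (0.42, adjusted p 0.00393) and Acot13 (-0.33, adjusted p 0.00799) came first on unloading, Acsl4 (-0.92) and Abcd2 (-0.76) from Unloading to Reloading, and Decr1 (-0.82) and Acot13 (-0.62) from Control to Reloading. Among those that rose was Cpt1a, the liver form of the enzyme that admits fatty acids to the shuttle and, like Pdk4, a gene named after its values were seen. Cpt1a rose from 8.23 ± 1.32 CPM in Control to 12.7 ± 0.958 CPM in Unloading and 20.1 ± 4.47 CPM in Reloading (SD), with log2 fold changes of 0.62 and 0.66 for the successive steps (adjusted p 0.0386 and 0.00863). The muscle form of that enzyme is Cpt1b, whose Unloading and Reloading libraries all lay below those of Control. Cpt1b had 6.13 ± 0.644 CPM in Control, 4.07 ± 0.353 CPM in Unloading and 3.97 ± 1.01 CPM in Reloading (SD). Whether the courses of Cpt1a and Cpt1b differed was not tested. Exon bases shared with other genes were examined for the enzyme genes but not for these lists. Pairs that overlapped several genes were not counted, so the levels of Cpt1a and Cpt1b cannot be ranked against each other.

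Of 18 tested genes for the other dehydrogenases that feed electron transfer flavoprotein and for branched-chain and ketone use, 8 fell on unloading, 16 fell and 2 rose from Unloading to Reloading and 17 fell and 1 rose from Control to Reloading, with medians of -0.29, -0.53 and -0.89. Unloading lowered Bdh1 (-1.24, adjusted p 0.000138) and Oxct1 (-0.97, adjusted p 0.000162), enzymes of ketone body use. Bckdha, of the branched-chain dehydrogenase, and Ivd, of leucine breakdown, came first in Reloading with -1.01 and -0.83 against Unloading and -1.20 and -1.31 against Control. The genes that rose were Bdh1 (0.64) and Sardh (0.82) against Unloading and Sardh (1.03) against Control, where Sardh had at most 2.34 CPM in any library.

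Nuclear genes of the respiratory chain moved by similar amounts. Of 37 complex I subunits 23 fell on unloading, 23 from Unloading to Reloading and 37 from Control to Reloading (medians -0.32, -0.28 and -0.59), and of 36 subunits of complexes III to V 28, 26 and 36 fell (medians -0.36, -0.31 and -0.64). The complex I subunits with the smallest p were Ndufc1 (-0.57) and Ndufab1 (-0.51) on unloading, Ndufb2 (-0.67) and Ndufb9 (-0.48) from Unloading to Reloading, and Ndufs1 (-0.85) and Ndufb1 (-0.82) from Control to Reloading. For complexes III to V they were Cox7a1 (-0.71) and Atp5j2 (-0.49), Atp5l (-0.69) and Atp5o (-0.47), and Cox6c (-0.87) and Cox8b (-0.89). From Unloading to Reloading these counts too depended on the scaling. With library totals, on which 7.34% of all tested genes were called lower and 35.4% higher, 5 complex I subunits were lower and 2 higher, 4 subunits of complexes III to V were lower and 0 higher, 3 of the further citric acid cycle genes were lower and 5 higher, 5 of the further fatty acid genes were lower and 7 higher, and 13 of the dehydrogenase and branched-chain genes were still lower and 2 higher.

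Markers of fibre types and of other cells moved with the groups. The summed level of 10 genes of slow and oxidative fibres was 4665 to 5482 CPM in Control, 3306 to 3324 CPM in Unloading and 2201 to 3078 CPM in Reloading, and 4 of the 10 fell on unloading (Myl2, Myl3, Myh2 and Mb, named after their values were seen). Of these, Myh2 encodes the myosin of oxidative fast fibres and Mb encodes myoglobin, so the list covers oxidative fibres more widely than slow ones. That of 11 fast-fibre genes was 191326 to 205642, 214809 to 218063 and 142360 to 155500 CPM, with 10 of 11 lower in Reloading than in Unloading. From Unloading to Reloading 12 of 16 macrophage genes, 9 of 10 endothelial genes and 5 of 6 smooth muscle genes rose, with summed levels of 131 to 132 against 234 to 259.8 CPM, 231 to 236 against 394 to 468 CPM and 108 to 109 against 177 to 199 CPM. The 8 neutrophil genes summed to at most 5.98 CPM in any library, and 2 of them passed the filter. Over the 10 lists 1 marker was at 0 in all libraries, Ucp1 of brown fat. The 9 fibroblast and progenitor genes summed to 1163 to 1510 CPM in Control, 1592 to 1668 CPM in Unloading and 1291 to 1463 CPM in Reloading, with Unloading above both other groups. Singly these 9 did not move together, since 2 fell and 3 rose on unloading. From Unloading to Reloading 3 fell and 4 rose, with a median log2 fold change of 0.34 although the sum was lower. The 8 adipocyte genes summed to 186 to 294, 258 to 270.1 and 309.8 to 348 CPM, with Reloading above both other groups, and the erythrocyte genes to 52.0 to 173 CPM over all libraries. Whether any of these lists had a part in the changes of the enzyme genes was not tested. Without Control 2 and Reloading 1, the libraries with skin transcripts, 19 enzyme genes were lower on unloading, 16 from Unloading to Reloading and 31 from Control to Reloading. Of the 14765 genes tested in that fit 4.24%, 15.9% and 17.3% were called lower.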

How the data were processed

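Poly-A RNA of gastrocnemius was sequenced in 9 libraries (4 Control, 2 Unloading, 3 Reloading), grouped by their labels. The submitters' processing notes name STAR 2.7.3a, featureCounts 2.0.3 and GRCm38.p6, and the header of the deposited counts gives Ensembl release 102. The deposited counts are whole numbers of read pairs per gene, made by the authors with featureCounts without strand and without normalization. The labels give paired ends, whereas the study's methods speak of single reads. The authors' tables of fold changes, standard errors and p-values were used only to pair gene IDs with symbols (238 of 241 symbols of the other lists, the other 3 from a reference table, and all 38 enzyme symbols). Library totals were 9252443 to 19612101, so that 1 read pair was worth 0.0510 to 0.108 CPM.

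Of 55487 genes 34376 had any count and 14851 passed edgeR's filterByExpr (minimum count 10, minimum total 15). All 9 libraries entered 1 fit with TMM scaling and edgeR's quasi-likelihood F-test (edgeR 4.0.16, R 4.3.3), with a common biological coefficient of variation of 0.0927, Benjamini-Hochberg adjustment over all tested genes and a threshold of 0.05. Adjusted p-values in the text are from this test unless another is named. A prior count of 2 entered the log2 CPM behind the correlations between libraries, and not the fold changes. Ratios were tested by exact permutation (SciPy 1.17.1, Python 3.11.15). Genes given in full were, for each comparison, the 8 enzyme genes with the smallest adjusted p and those with the highest and lowest log2 fold change, plus the 2 with the smallest p from each neighbouring list; other members were described by role. The enzyme genes, the lists and the tests were chosen with earlier results of these data known. The edgeR fit was also run on simulated counts with known changes, whose means and spread were taken from these data.

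Replicates differed beyond sampling noise (chi-square per degree of freedom 3.71 to 8.74). The numbers in the sample descriptions paired Control with Reloading libraries, whose deviations from the group means correlated at 0.361, 0.143 and 0.155; the first pair is Control 2 and Reloading 1, which share skin transcripts. For Control and Unloading the correlations were 0.0544 and 0.0752. Alternatives comprised size factors (RLE), library totals with and without mitochondrial genes, other filters, a robust prior, fits of only the groups compared, both replicate blocks, DESeq2 1.42.0 and leaving out libraries. No amino acid sequence was used here.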

Additional observations from a re-analysis of the deposited data

How the results depend on the processing

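Over all alternatives 925 of 993 values kept their direction and their side of the threshold or stayed within the limits set for a change. The 993 include summed levels without 1 library, which could not count as changed, because their limit was the SD of the group. Ratios counted as changed only where their sign turned. The 925 is therefore not a measure of stability. Of the genes given in full 16 values lost the call and 2 gained it in the same direction. For the changes below the cause was not tested. With the replicate block by title numbers 11 enzyme genes were called lower on unloading, beside 3.82% of all tested genes. With the replicate block by description numbers 1 of the 38 (Eci2, 2.63%) was called higher, beside 4.59% of all tested genes. The block by description numbers, which paired Control with Reloading, changed the call of Ogdh between those groups and of no other gene named there. From Unloading to Reloading, 4 genes were called lower with library totals and 5 with totals without mitochondrial genes, against 20. Of all tested genes 7.34% and 9.07% were called lower on these scales, against 19.0%. The number called higher was 6 on both of these scales and 1 with RLE, with no filter, and without Control 2 and Reloading 1 together, against 2. The shares of all tested genes called higher were, in that order, 35.4%, 30.7%, 17.6%, 7.56% and 15.4%, against 18.5%. The median of the 38 turned to 0.022 with library totals and was -0.031 with totals without mitochondrial genes. From Control to Reloading, library totals gave 2 genes higher, beside 40.6% of all tested genes, and a median of -0.29. Totals without mitochondrial genes gave a median of -0.34, and Dlst turned to 0.20 with the former and 0.14 with the latter. The summed level with library totals was 11308 CPM in Control and 9417 CPM in Reloading.

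Leaving out 1 library at a time, the count lower on unloading ran from 2 (without Unloading 1) to 25, the count higher from 0 to 1 and the median from -0.39 to -0.23. From Unloading to Reloading the count lower ran from 7 (without Unloading 2) to 21, the count higher from 0 to 2 and the median from -0.33 to -0.14. Small ratio differences changed sign. On the log2 scale Suclg2 to Sucla2 ran from -0.020 to 0.088 on unloading and from -0.021 to 0.087 on reloading, Idh3g to Idh3a from -0.052 to 0.070 on unloading, Mdh1 to Mdh2 from -0.016 to 0.094 on unloading and from -0.086 to 0.024 against Control in Reloading, and Pdhb to Pdha1 from -0.056 to 0.013 on unloading. Without Control 2 and Reloading 1 together, Mdh1 to Mdh2 was -0.016 and Pdhb to Pdha1 0.013 on unloading. With 2 Unloading libraries, leaving out either one assumes that the other varies like the remaining groups. Etfb, with 131 to 329 counts a library, was the gene with the least depth.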
